A study of Mus musculus with 12 samples.

Results

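The glucocorticoid response and the metallothioneins were examined through 10 genes, found by exact match of the gene symbol among the 23845 genes of the expression tables. Of these, 8 belong to the glucocorticoid response (the receptor Nr3c1 and the responsive genes Fkbp5, Tsc22d3, Per1, Sgk1, Zbtb16, Errfi1 and Ddit4) and 2 are metallothioneins (Mt1 and Mt2). Each of the 10 had 1 row in both tables and passed the filter on low counts. The RNA was labelled as that of microglia, the macrophages of brain tissue, enriched with Percoll gradients. All mice were C57BL6/J and 3 to 4 months old. There were 4 groups of 3 libraries, each library from 1 animal: WT and CPEB1-KO mice without injection of lipopolysaccharide (LPS, a bacterial cell wall molecule that activates innate immunity), and WT-LPS and CPEB1-KO-LPS mice that received LPS 24 h before the cells were taken. CPEB1 is an RNA-binding protein that regulates poly(A) tail length and translation. The labels do not say how the knockout was made, which cells lack the gene, or whether the mice without LPS received a vehicle, and they give neither the LPS dose nor the sex of the animals.

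Glucocorticoids are adrenal steroids whose release rises during infection and stress. In the cell they bind the glucocorticoid receptor, which is held by heat shock proteins and co-chaperones, enters the nucleus and binds palindromic response elements to raise or lower transcription. Among its best known targets are genes that damp the signal or inflammation, in microglia as in other macrophages. Metallothioneins are small cysteine-rich proteins that bind zinc and copper, and their genes respond to metals through the factor MTF1, and also to glucocorticoids and inflammatory signals.

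Total expected counts ranged from 5.02 to 13.5 M (1e+06 counts) per library. Cpeb1 itself was read in all libraries, at 15.5 to 43.2 TPM (transcripts per 1e+06 transcripts) in WT and 17.6 to 26.4 TPM in CPEB1-KO, and its average genotype difference did not pass (log2 fold change -0.32 ± 0.23, adjusted p = 0.543), so genotypes are named here as labelled. The 8 microglia markers summed to between 5080 and 5790 TPM in WT, 946 and 4400 TPM after LPS, while CPEB1-KO had 2470 to 3880 TPM and CPEB1-KO-LPS 649 to 2730 TPM. Markers of other cells were read too, so the RNA was not of microglia alone. The 10 oligodendrocyte lineage markers summed to 4020 to 8180 TPM in WT and 4070 to 8150 TPM in WT-LPS. In CPEB1-KO they summed to 3100 to 5550 TPM and in CPEB1-KO-LPS to 2120 to 4580 TPM. Neuron markers summed to 3430 to 4790 TPM in CPEB1-KO and 2200 to 4160 TPM in CPEB1-KO-LPS. Markers of neurons were highest within their groups in WT replicate 1 (3370 TPM, against 1150 and 1420) and WT-LPS replicate 1 (5460 TPM, against 1850 and 2190). Markers of red blood cells were highest in CPEB1-KO-LPS replicate 3 (61100 TPM, against 7050 and 11900). Genotype results are given with and without these 3 libraries.

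LPS was followed by higher levels of most of the 10 genes. In WT-LPS against WT, 8 of 10 rose and 0 fell past a false discovery rate (FDR) of 0.05 over 15295 genes (edgeR), where 12.4% of all genes were called higher, 14.9% lower and 27.4% in either direction. In CPEB1-KO-LPS against CPEB1-KO, 7 rose and 0 fell, where 4.1% of all genes were called higher, 2.12% lower and 6.22% in either direction. The median log2 fold change of the 10 genes was 1.93 in wild type and 1.70 in knockout, against -0.03 and 0.00 over all genes tested. On TPM, the LPS and untreated libraries of wild type did not overlap for any of the 10, all being higher with LPS, as were 27.4% of all genes. In knockout 9 were higher without overlap (16.2% of all genes) and Nr3c1 lower (15.0% of all genes). Nr3c1 passed in neither genotype, and Per1 and Tsc22d3 are described below. In bulk RNA a gene can be higher because cells that express it are more numerous or because each cell holds more of its transcript, and these cannot be told apart.

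**Figure D1:**
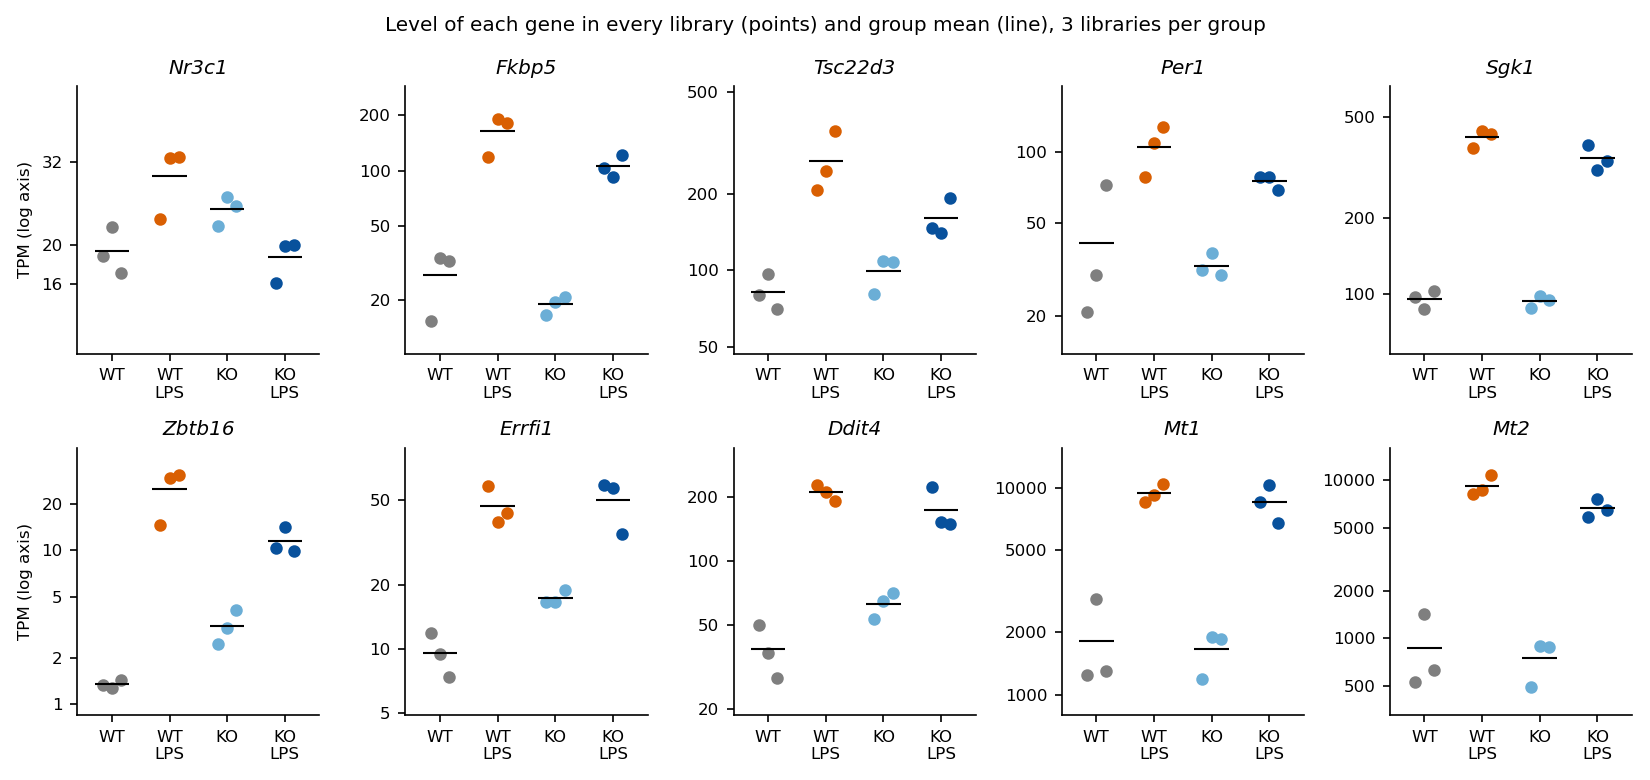
TPM of the 10 genes in each of the 12 libraries on log axes, 1 panel per gene, with points for libraries and lines for group means (KO is CPEB1-KO). For Sgk1 the untreated libraries lie between 87.2 and 103 TPM and the LPS libraries between 307 and 441 TPM.

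Nr3c1, which encodes the glucocorticoid receptor, was present in all groups, at 16.1 to 33.0 TPM. Its TPM was 18.7, 22.1 and 17.0 in WT, 23.1, 32.8 and 33.0 in WT-LPS, 22.3, 26.3 and 25.0 in CPEB1-KO, and 16.1, 19.8 and 19.9 in CPEB1-KO-LPS. On this scale the LPS libraries lay above the untreated ones in wild type and below them in knockout. Of all genes, 0.451% pointed opposite ways in the 2 genotypes without overlap, in either order. In the count model, which scales libraries to each other, the log2 fold change with LPS was 0.25 ± 0.25 (SE; edgeR, adjusted p = 0.483) in wild type and -0.35 ± 0.25 (adjusted p = 0.473) in knockout. On counts per 1e+06 (CPM) after that scaling, the groups overlapped in both genotypes.

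Fkbp5 (chromosome 17, 28399094 to 28517527, minus strand; positions are from GENCODE M21 on mm10) encodes a co-chaperone that lowers the receptor's affinity for hormone and is itself induced through the receptor. It stood at 15.4, 33.8 and 32.5 TPM in WT and at 118, 191 and 180 TPM in WT-LPS. In knockout it stood at 16.6, 19.6 and 20.8 TPM without LPS and at 103, 92.1 and 122 TPM with it. All LPS libraries exceeded all untreated libraries, and WT replicate 1 was low within its group. Fkbp5 rose by a log2 fold change of 2.19 ± 0.37 in wild type (adjusted p = 0.00138) and 2.54 ± 0.37 in knockout (adjusted p = 0.00117).

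Tsc22d3 (chromosome X, 140539528 to 140600659, minus strand) encodes GILZ, a leucine zipper protein that binds inflammatory transcription factors and is a mediator of glucocorticoid action in macrophages. Its TPM was 79.9, 96.7 and 70.5 in WT against 207, 246 and 353 in WT-LPS, and 80.8, 109 and 108 in CPEB1-KO against 147, 140 and 192 in CPEB1-KO-LPS. The groups did not overlap in either genotype. Tsc22d3 rose in wild type (log2 fold change 1.34 ± 0.29, adjusted p = 0.00532), whereas the change in knockout, 0.80 ± 0.29, did not pass (adjusted p = 0.126). The difference between these responses was itself not past the threshold (interaction -0.54 ± 0.41, adjusted p = 0.538).

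Sgk1, a kinase that regulates ion channels and transporters and is induced by corticosteroids, had the smallest standard errors of the 10 genes with LPS. It measured 96.9, 87.2 and 103 TPM in WT and 377, 441 and 427 TPM in WT-LPS. The knockout values were 88.1, 98.1 and 94.6 TPM, and 387, 307 and 334 TPM with LPS. On TPM the untreated libraries of both genotypes lay in 1 narrow band and LPS libraries well above it. On scaled CPM the 3 CPEB1-KO libraries (127 to 131) lay below the 3 WT libraries (146 to 179), as 13.9% of all genes did, and this difference did not pass (log2 fold change -0.35 ± 0.21, adjusted p = 0.371). Its log2 fold changes were 1.76 ± 0.21 in wild type (adjusted p = 0.000201) and 1.90 ± 0.21 in knockout (adjusted p = 0.000174).

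Sgk1 (chromosome 10, 21882184 to 21999903, plus strand, GENCODE M21 on mm10) has several start sites. One RefSeq window of 250 bases before a start, chr10:21993640-21993889 on the plus strand of GRCm38.p6, which lies within the longer gene model, held the full palindromic glucocorticoid response element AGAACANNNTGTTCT, 189 bases before the start. This full element was found in 3 of 32851 such windows (0.00913%) on either strand. Windows were available for 8 of the 10 genes, 17 windows in all, and the Sgk1 window shown was the only one of the 17 with a match to it. Imperfect elements, and elements outside the windows, were not searched, so a window without a match does not show that a gene lacks such elements. The sequence is printed 5′ to 3′ with the element in capitals.
Sgk1: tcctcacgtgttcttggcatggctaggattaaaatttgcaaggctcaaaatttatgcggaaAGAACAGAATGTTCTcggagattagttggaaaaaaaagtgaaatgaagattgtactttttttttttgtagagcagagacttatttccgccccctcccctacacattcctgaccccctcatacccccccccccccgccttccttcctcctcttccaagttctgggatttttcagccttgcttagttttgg
A match is a description of letters and not a measured binding site.

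Per1 (chromosome 11, 69095217 to 69109960, plus strand), a core component of the circadian clock that also responds acutely to glucocorticoids, was spread widely in WT. It stood at 20.8, 30.0 and 72.1 TPM in WT and at 78.2, 109 and 127 TPM in WT-LPS. In knockout it stood at 31.5, 37.0 and 30.0 TPM, and at 78.1, 78.1 and 68.7 TPM with LPS. WT replicate 3 came close to the lowest WT-LPS library, and on scaled CPM these groups overlapped. The log2 fold changes of 1.00 ± 0.37 (adjusted p = 0.0574) and 1.23 ± 0.37 (adjusted p = 0.0665) did not pass. Without WT replicate 3 the wild-type value was 1.61 with an adjusted p of 0.0059, and without WT-LPS replicate 1 it was 1.24 with an adjusted p of 0.0358 (edgeR). Without WT replicate 1 it was 0.64 (adjusted p = 0.115), and over all single libraries left out the adjusted p reached 0.145. In knockout the value ranged from 1.16 to 1.30 when single libraries were left out, with adjusted p from 0.0165 (without WT replicate 1) to 0.227. DESeq2 called Per1 in both genotypes (adjusted p = 0.0292 and 0.0219), in fits that called 33.2% and 10.8% of all genes. The hour of collection was not among the labels used here.

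Zbtb16 (chromosome 9, 48654297 to 48836222, minus strand), which encodes the zinc finger repressor PLZF, showed the largest log2 fold change of the 10 genes in wild type and had the lowest levels. Its TPM was 1.33, 1.28 and 1.43 in WT (26 to 42 counts) and 14.5, 29.2 and 30.9 in WT-LPS. In knockout it was 2.48, 3.14 and 4.12 without LPS and 10.3, 14.1 and 9.91 with LPS. The knockout libraries thus lay above wild type without LPS and below it with LPS, with no overlap in either case on TPM or scaled CPM. Without LPS 26.7% of all genes were higher without overlap on TPM and 12.9% on scaled CPM, and with LPS 8.75% and 5.72% were lower. Zbtb16 rose by a log2 fold change of 3.87 ± 0.34 in wild type (adjusted p = 3.59e-05) and 1.85 ± 0.30 in knockout (adjusted p = 0.00251).

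Errfi1 (chromosome 4, 150853919 to 150868892, plus strand), a feedback inhibitor of the epidermal growth factor receptor family, and Ddit4 (chromosome 10, 59949669 to 59951834, minus strand), which restrains the growth kinase mTORC1 and is also called REDD1, are described together. Errfi1 measured 11.8, 9.43 and 7.35 TPM in WT and 57.8, 39.4 and 43.4 TPM in WT-LPS. In knockout Errfi1 measured 16.6, 16.5 and 18.8 TPM, and 58.4, 56.7 and 34.3 TPM with LPS. Every LPS library exceeded every untreated one, and the knockout libraries without LPS lay above those of WT. Ddit4 measured 49.8, 36.9 and 28.1 TPM in WT and 229, 211 and 192 TPM in WT-LPS. In knockout Ddit4 measured 53.1, 64.8 and 70.3 TPM, and 224, 152 and 149 TPM with LPS. As for Errfi1, LPS libraries exceeded untreated ones and CPEB1-KO libraries exceeded those of WT. CPEB1-KO lay above WT in this way for 26.7% of all genes on TPM and 12.9% on scaled CPM, and neither Errfi1 nor Ddit4 passed there (adjusted p = 0.229 and 0.371, edgeR). Errfi1 rose by log2 fold changes of 1.93 ± 0.22 in wild type (adjusted p = 0.000144) and 1.54 ± 0.22 in knockout (adjusted p = 0.000865). For Ddit4 they were 2.11 ± 0.23 (adjusted p = 0.000105) and 1.52 ± 0.23 (adjusted p = 0.00134).

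**Figure D2:**
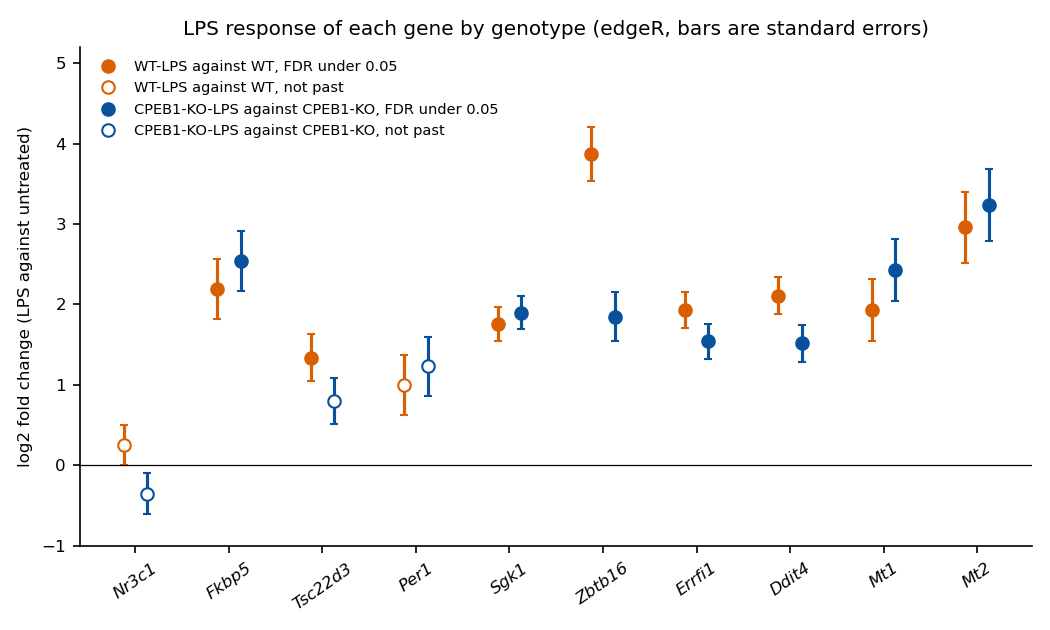
Log2 fold change of each gene with LPS in wild type (orange) and knockout (blue), with standard errors derived from the edgeR F statistic. Filled points passed an FDR of 0.05, which Nr3c1 and Per1 did in neither genotype. Zbtb16 has the widest gap between genotypes, 3.87 against 1.85.

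The metallothioneins were the most abundant of the 10 genes in every group. Mt1 measured 1250, 2890 and 1310 TPM in WT and 8490, 9210 and 10400 TPM in WT-LPS. In knockout Mt1 measured 1200, 1910 and 1860 TPM without LPS and 8510, 10300 and 6740 TPM with LPS. All LPS libraries exceeded all untreated ones, and WT replicate 2 was high within its group.
Mt2 measured 528, 1430 and 635 TPM in WT and 8200, 8660 and 10700 TPM in WT-LPS. In knockout Mt2 measured 492, 893 and 879 TPM, and 5880, 7640 and 6460 TPM with LPS. Mt1 rose by log2 fold changes of 1.93 ± 0.39 in wild type (adjusted p = 0.00351) and 2.43 ± 0.39 in knockout (adjusted p = 0.00249). Mt2 rose by 2.96 ± 0.44 (adjusted p = 0.000731) and 3.24 ± 0.45 (adjusted p = 0.000839) on the same scale. The wild-type values rest in part on WT replicate 2, without which they were 2.67 for Mt1 and 3.78 for Mt2. Together Mt1 and Mt2 made up 0.169% to 0.432% of all TPM in untreated libraries and 1.32% to 2.11% in LPS libraries.

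Mt2 gained on Mt1 with LPS. The ratio of Mt1 to Mt2 TPM was 2.37, 2.02 and 2.07 in WT and 2.44, 2.14 and 2.11 in CPEB1-KO. It was 1.04, 1.06 and 0.971 in WT-LPS and 1.45, 1.35 and 1.04 in CPEB1-KO-LPS. No LPS library reached the lowest untreated ratio, and scaling between libraries does not enter a ratio taken within a library. The log2 ratio was lower by 0.94 on average with LPS (1.13 ± 0.11 against 0.19 ± 0.24, SD, n = 6 each; two-sided exact test permuting LPS labels within genotype, p = 0.005, the smallest this design can give, and 0.025 after Benjamini-Hochberg adjustment over 5 comparisons of the ratio). Within each genotype the exact permutation p was 0.1, the smallest that 3 against 3 can give. With LPS the mean log2 ratio was 0.34 in knockout and 0.03 in wild type, a difference that did not pass (exact permutation p = 0.2). The ratio was examined after its values had been seen. The 2 genes are alike in sequence, so reads could be assigned to the wrong copy. Their expected counts were whole numbers in every library, where 3.69% to 4.66% of all genes per library had counts that were not whole. The part of wrong assignment in the ratio was not tested.

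**Figure D3:**
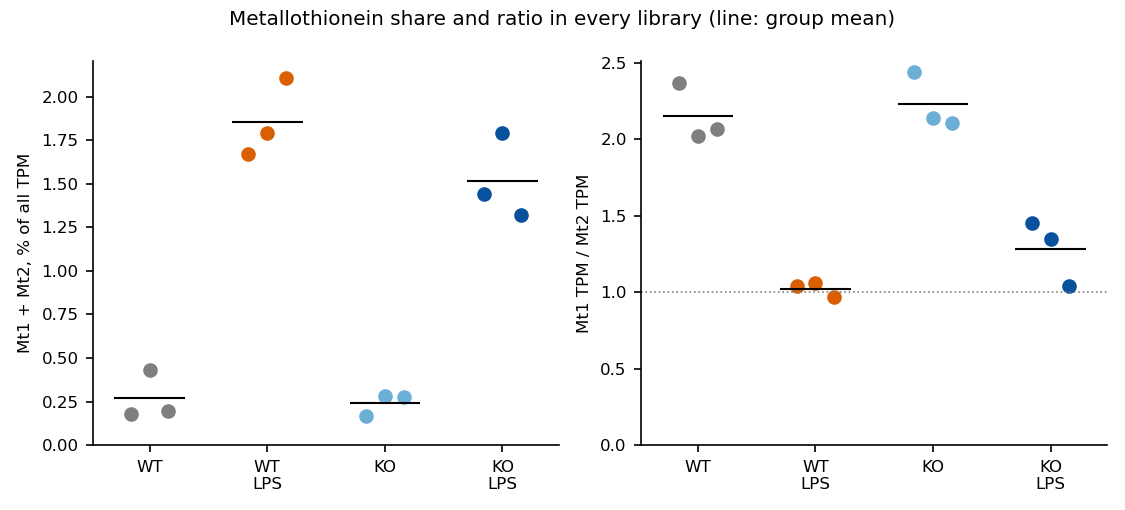
Left, Mt1 and Mt2 together as a percentage of all TPM. Right, the ratio of Mt1 to Mt2 TPM, with a dotted line at equal levels. Points are libraries and lines group means; the ratio lies at 2.02 or above in all untreated libraries and at 1.45 or below in all LPS libraries.

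Mt2 (chromosome 8, 94172664 to 94173568) and Mt1 (chromosome 8, 94179082 to 94180327) lie side by side on the plus strand of mm10, with RefSeq start sites 6471 bases apart. The 250 bases before each RefSeq start are shown, and their part in the LPS response of either gene was not tested. They are chr8:94172368-94172617 for Mt2 and chr8:94178839-94179088 for Mt1 (GRCm38.p6, plus strand, 5′ to 3′). Capitals mark the core of the metal response element that MTF1 recognises, written TGCACNC or TGCGCNC and searched on both strands.
Mt2: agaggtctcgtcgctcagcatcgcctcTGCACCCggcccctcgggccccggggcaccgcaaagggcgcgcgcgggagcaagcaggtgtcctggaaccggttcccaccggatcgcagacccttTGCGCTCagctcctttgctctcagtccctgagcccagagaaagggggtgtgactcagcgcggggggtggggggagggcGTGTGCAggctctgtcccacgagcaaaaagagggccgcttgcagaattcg
Mt1: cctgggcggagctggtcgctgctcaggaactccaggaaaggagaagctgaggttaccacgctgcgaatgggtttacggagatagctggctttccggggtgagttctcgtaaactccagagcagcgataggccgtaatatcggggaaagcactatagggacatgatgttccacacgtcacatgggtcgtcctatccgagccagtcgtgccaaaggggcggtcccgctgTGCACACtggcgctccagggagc
The Mt2 window held 3 matches, 223, 128 and 50 bases before the start, and the Mt1 window 1, 23 bases before it. At least 1 match was present in 21.4% of the 32851 windows and at least 3 in 1.26%. Ddit4 and Per1 each had 1 match in a window. The search ended at the RefSeq start, so elements further downstream were not counted, and a start annotated elsewhere would move the window.

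Differences between genotypes did not pass with all 12 libraries. With edgeR, 0 of the 10 genes passed in CPEB1-KO against WT (0.0327% of all genes called, in either direction) and 3 had an unadjusted p under 0.05 (18.6% of all genes did), namely Zbtb16, Fkbp5 and Errfi1. The log2 fold changes were 0.94 ± 0.32 for Zbtb16, -0.90 ± 0.36 for Fkbp5 and 0.53 ± 0.22 for Errfi1. In CPEB1-KO-LPS against WT-LPS 0 passed (0.00654% of all genes called) and 3 had an unadjusted p under 0.05 (10.8% of all genes did), namely Zbtb16 at -1.07 ± 0.29, Tsc22d3 at -0.67 ± 0.29 and Nr3c1 at -0.60 ± 0.25. Averaged over treatments 0 passed (0.111% of all genes called), and Fkbp5 at -0.72 ± 0.25 had an unadjusted p under 0.05 (11.6% of all genes did). DESeq2 also called 0 of the 10 in each of these 3 comparisons, where it called 3.39%, 0.588% and 0.706% of all genes. Limma on log2(TPM + 1) called 0 of the 10 as well. Over all genes limma called 9 in CPEB1-KO against WT and 4 in CPEB1-KO-LPS against WT-LPS. Not passing does not show equal levels: in simulated data a doubling was recovered for 22% of changed genes in CPEB1-KO against WT and 18% in CPEB1-KO-LPS against WT-LPS.

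Among the 10 genes the largest estimated difference in LPS response between genotypes was that of Zbtb16. Its interaction, the knockout log2 response less the wild-type one, was -2.01 ± 0.43 (unadjusted p = 0.000418, adjusted p = 0.195 with edgeR). Of the 10 genes 0 passed in the interaction (0.00654% of all genes called) and of the 10 only Zbtb16 had an unadjusted p under 0.05 (15.5% of all genes did). DESeq2 called it (-2.07 ± 0.50, adjusted p = 0.0132), in a fit that called 1.97% of all genes. Leaving out each library in turn gave values from -2.39 to -1.80 and adjusted p from 0.0547 to 0.486. The other interactions lay between -0.59, for Ddit4 and Nr3c1, and 0.51, for Mt1. Those of Fkbp5, Per1, Sgk1, Mt1 and Mt2 were positive here and negative on TPM, where the median of all genes moved to -0.30.

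Genotype differences depended on the libraries with high neuron or red blood cell markers. Without WT replicate 1, Fkbp5 at -1.24 (adjusted p = 0.0267, edgeR) and Per1 at -1.01 (adjusted p = 0.0496) were lower in CPEB1-KO than in WT, in a fit that called 8.31% of all genes. That library was the lowest of WT for both genes (15.4 and 20.8 TPM), so leaving it out by itself raises their WT mean. Without WT replicate 1, WT-LPS replicate 1 and CPEB1-KO-LPS replicate 3 together, the same 2 genes passed (-1.30 and -1.06), where 24.4% of all genes did. That setting was chosen after seeing the data. In CPEB1-KO-LPS against WT-LPS it gave 4 lower genes, Zbtb16 (-1.47), Tsc22d3 (-1.27), Fkbp5 (-1.11) and Nr3c1 (-1.05), where 18.2% of all genes passed. WT-LPS replicate 1 was the lowest of WT-LPS for these 4 genes, so leaving it out by itself raises their WT-LPS mean. Averaged over treatments, Fkbp5 (-1.21), Per1 (-0.93), Tsc22d3 (-0.76) and Sgk1 (-0.49) were lower, where 19.8% passed, and the Zbtb16 interaction was -2.25 (adjusted p = 0.0101), where 8.84% passed. Of the libraries kept, the neuron markers summed to 1150 and 1420 TPM in WT and 3430 to 4790 TPM in CPEB1-KO, so genotype and marker level cannot be told apart there. Of the LPS libraries kept, microglia markers summed to 4400 and 3000 TPM in WT-LPS and 1120 and 649 TPM in CPEB1-KO-LPS, and neuron markers to 1850 and 2190 TPM against 3760 and 4160 TPM, so the same holds for the comparison with LPS.

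Libraries of 1 group also differed in the 10 genes together. In WT replicate 2 all 10 lay above their group mean of log2 CPM, by a median of 0.37, while 50.3% of all genes tested did. In replicate 1 of WT, WT-LPS and CPEB1-KO 2 of 10 lay above it, with medians of -0.26, -0.30 and -0.14, and in replicate 1 of CPEB1-KO-LPS 3 of 10 did, with a median of -0.13. Of all genes tested 51.0%, 54.2% and 53.1% lay above it in replicate 1 of WT, CPEB1-KO and CPEB1-KO-LPS, and in WT-LPS replicate 1 the median deviation of all genes was 0.00. In CPEB1-KO-LPS replicate 3, 8 of 10 lay above it, with a median of 0.14, against 45.4% of all genes. WT replicates 1 and 2 differed most in Mt2 (-0.74 and 1.11), Mt1 (-0.59 and 1.02) and Fkbp5 (-0.93 and 0.65).

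The wider glucocorticoid response was read from 24 other induced genes, of which 23 were tested. In wild type 14 rose and 2 fell with LPS (12.4% and 14.9% of all genes did), with a median log2 fold change of 1.78. In knockout 12 rose and 1 fell (4.1% and 2.12% of all genes did), with a median of 1.10. Many of these genes also respond to inflammatory signals directly. The cell cycle inhibitor Cdkn1a rose by 4.16 ± 0.23 (SE) in wild type and 3.56 ± 0.22 in knockout, the decoy receptor for interleukin-1 Il1r2 by 7.08 ± 0.73 and 6.21 ± 0.67, and the kinase Map3k6 by 4.94 ± 0.53 and 4.68 ± 0.50. Il1r2 had only 2 to 4 counts per library in WT, so its fold is imprecise. Dusp1, a phosphatase that switches off MAP kinases, rose by 3.66 ± 0.70 and 3.03 ± 0.68, and Cebpd, a transcription factor, by 1.78 ± 0.28 and 2.77 ± 0.28. Irs2, an adaptor of insulin signalling, rose by 2.62 ± 0.27 and 1.19 ± 0.25. Klf9, a transcriptional repressor, rose in wild type (1.89 ± 0.36, adjusted p = 0.00257), from 17.7 ± 7.5 to 88.4 ± 22.7 TPM, while its change of 0.70 in knockout did not pass (adjusted p = 0.276). Its TPM did not overlap in knockout either, and its interaction of -1.19 ± 0.49 did not pass (edgeR, adjusted p = 0.274). Arrdc2 had 0.69 ± 0.35 in wild type (adjusted p = 0.155) and 2.39 ± 0.36 in knockout (adjusted p = 0.00155). The Arrdc2 interaction of 1.7 ± 0.49 did not pass (edgeR, adjusted p = 0.201). Among genes that fell, Cdkn1c, another cell cycle inhibitor, did so in both genotypes (-2.75 ± 0.33 and -1.75 ± 0.32). Cd163, the haemoglobin scavenger receptor of macrophages, was lower in wild type (-1.47 ± 0.51, adjusted p = 0.0479) with 13 to 30 counts per library in these groups. In knockout Cd163 had 0.87 ± 0.47 (edgeR, adjusted p = 0.329), and its interaction of 2.34 ± 0.7 did not pass (adjusted p = 0.203).

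Genes that hold, modify or supply the receptor were called about as often as all genes in wild type. Of 15 chaperones, coregulators and steroid enzymes, 14 were tested. In wild type 3 coactivators rose (Crebbp by 1.67 ± 0.29, Ncoa2 by 0.84 ± 0.16 and Ncoa1 by 0.61 ± 0.18) and 1 fell (Ncoa3, -0.76 ± 0.26), where 27.4% of all genes were called in either direction, and the median was 0.43. In knockout 0 passed with edgeR (6.22% of all genes did), the smallest unadjusted p being 0.0265 for the co-chaperone Fkbp4, with a log2 fold change of -0.54. Hsd11b1, which regenerates active glucocorticoid inside cells, had log2 fold changes of 0.20 (adjusted p = 0.578) and -0.30 (adjusted p = 0.549). The mineralocorticoid receptor Nr3c2, which also binds glucocorticoids, had 0.96 (adjusted p = 0.0738) and -0.19 (adjusted p = 0.815).

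Zinc handling was read from 19 genes, of which 18 were tested. In wild type 5 rose and 1 fell, where 27.4% of all genes were called in either direction, and in knockout 2 rose and 0 fell, where 6.22% were. The medians were 0.11 and 0.06. Slc39a14, a zinc importer that inflammation induces, went from 6.97 ± 1.92 to 51.1 ± 10.5 TPM in wild type and from 11.4 ± 0.65 to 38.9 ± 8.44 TPM in knockout (log2 fold changes 2.56 ± 0.23 and 1.78 ± 0.22). The importer Slc39a1 rose in both genotypes (1.13 ± 0.26 and 0.99 ± 0.26). The exporter Slc30a1, a target of MTF1, rose in wild type (1.11 ± 0.26, adjusted p = 0.00746) and measured 0.07 in knockout (adjusted p = 0.904), with an interaction of -1.04 (adjusted p = 0.224). Slc30a4 (1.33 ± 0.22) and Slc30a7 (0.97 ± 0.25) also rose in wild type, and Slc39a13 fell (-0.89 ± 0.21). Mtf1 itself measured 0.04 and 0.00. Mt3, a metallothionein found mainly in the brain, measured 1580 ± 438 TPM in WT and 1390 ± 315 TPM in WT-LPS, and its changes of -0.58 and -0.21 did not pass (adjusted p = 0.141 and 0.734). In the 4 comparisons of genotype, 0 genes of these 3 lists passed with edgeR.

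**Figure D4:**
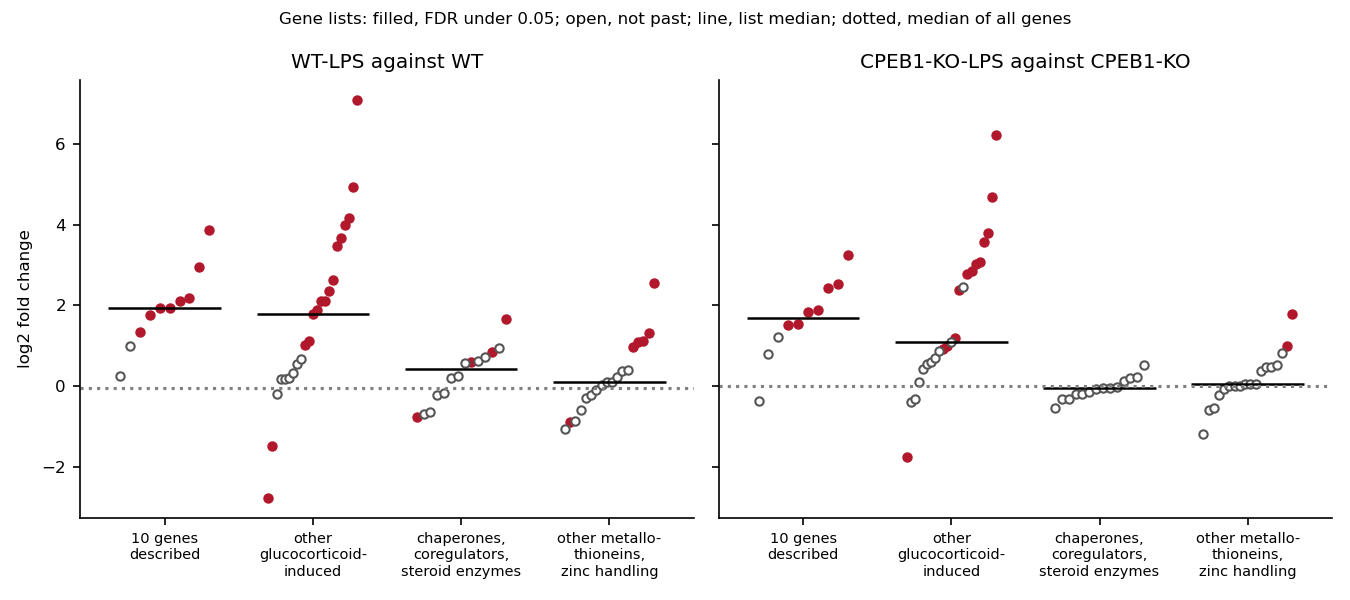
Log2 fold change with LPS in wild type (left) and knockout (right) for the 10 genes and the 3 wider lists, each ordered by value. Filled points passed an FDR of 0.05, lines are list medians and the dotted line is the median of all genes tested. The medians of the 10 genes are 1.93 and 1.70, and those of the zinc list 0.11 and 0.06.

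The genes most like Fkbp5 over the 12 libraries, by root mean square difference of log2 CPM centred per gene, were Plin2 (0.30), Ifitm2 (0.36), Mvp (0.36), Mmp19 (0.38) and Muc1 (0.39). Mt1 stood at rank 9 among all genes tested, Sgk1 at rank 23 and Mt2 at rank 51. Per1, Ddit4, Zbtb16, Tsc22d3 and Errfi1 lay further off, at ranks 178, 211, 239, 313 and 432. Those most like Mt2 were Rhoj (0.35), Maff (0.40), Mt1 (0.50), Cp, which encodes the copper protein ceruloplasmin (0.50), and Cdkn1a (0.52), with Fkbp5 at rank 6. For Mt2 the ranks of Zbtb16, Sgk1, Ddit4, Errfi1, Tsc22d3 and Per1 were 45, 119, 180, 259, 479 and 505. Nr3c1 stood at rank 5059 for Fkbp5 and 5857 for Mt2.

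Marker levels of several cell types moved with LPS beside these genes. Of 8 microglia markers 4 were lower in WT-LPS than in WT and 1 in CPEB1-KO-LPS than in CPEB1-KO. Of 10 astrocyte markers 3 and 1 were higher. Over all genes 12.4% were called higher and 14.9% lower in wild type, and 4.1% higher and 2.12% lower in knockout, which holds for each marker count here. Astrocytes are a known source of metallothioneins, and their markers summed to 1100 to 2310 TPM in WT, 2160 to 3680 TPM after LPS, and in knockout to 1150 to 2130 TPM without LPS and 1330 to 1820 TPM with it. Gfap, an intermediate filament of reactive astrocytes, was among those that rose, from 114 ± 47.7 to 663 ± 173 TPM in wild type and from 110 ± 18.2 to 434 ± 91.1 TPM in knockout. The median log2 fold change of the 10 astrocyte markers was 0.36 in wild type and -0.47 in knockout, so Gfap did not stand for the list in knockout. Of 10 endothelial and mural markers 5 were higher and 1 lower in wild type, with sums of 37.2 to 56.4 TPM in WT and 99.2 to 262 TPM in WT-LPS. In knockout 0 were higher and 2 lower, with sums of 51.2 to 90.5 and 50.9 to 62.9 TPM. Monocyte markers were higher for 4 of 7 in wild type (43.9 to 68.0 against 250 to 510 TPM), and 0 were higher and 1 lower in knockout (21.1 to 94.3 against 103 to 162 TPM). Choroid plexus and ependyma markers fell for 7 of 7 in wild type (4890 to 8710 against 1290 to 2590 TPM) and 5 of 7 in knockout (8010 to 9990 against 2680 to 4030 TPM). The 4 markers of red blood cells tested all fell in wild type (41700 to 67000 against 6540 to 10900 TPM), and in knockout 0 were called (27900 to 37800 against 7050 to 61100 TPM). Of 10 oligodendrocyte lineage markers 0 were higher and 3 lower in wild type, and 0 were higher and 2 lower in knockout. Of 10 neuron markers 1 was higher in wild type, and 0 were called in knockout. Of 7 neutrophil markers tested 0 were called in either genotype. No marker was at 0 in all 3 libraries of a group. Their part in the responses of the 10 genes was not tested.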

How the data were processed

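The 10 genes, the gene lists and the tests were chosen with earlier results of these data known. The authors deposited expected counts per gene, not normalised between libraries, and TPM values computed within each library; RSEM, cutadapt and build mm10 are listed by the submitters' processing notes. Their versions and the aligner: not given in the sources used here. Expected counts were rounded and fitted with edgeR 4.0.16 in R 4.3.3: filterByExpr kept 15295 genes, libraries were scaled by TMM, and a quasi-likelihood model with 4 group means had 8 residual degrees of freedom. The average genotype difference came from an additive model of genotype and LPS. Tests were two-sided, with Benjamini-Hochberg adjustment over all genes and a threshold of 0.05. A fold change is given as log2 with its standard error (SE). Totals of 5.02 to 13.5 M limit precision for genes of low counts. The script was tested on simulated data. Alternatives were median-of-ratios scaling (RLE), DESeq2 1.42.0, no filter, at least 50 counts in 3 libraries, limma 3.58.1 on log2(TPM + 1) and log2(TPM + 0.1), only the groups compared, a replicate block, and leaving out libraries. Named genes were the 10, up to 4 per list and comparison by smallest unadjusted p, 8 fixed genes, and the 5 most like Fkbp5 and Mt2. Cdkn1c and Slc30a7 were named after their values were seen. Promoter windows are from RefSeq and positions from GENCODE M21. No sequence or position is given for Nr3c1.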

Additional observations from a re-analysis of the deposited data

Results flagged for a closer look

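Nr3c1 was singled out because its TPM was higher with LPS in every WT library and lower with LPS in every CPEB1-KO library, relative to the untreated libraries of the same genotype. Of all genes tested, 69 (0.451%) had groups that did not overlap and pointed opposite ways in the 2 genotypes, in either order. The test of the difference itself, the interaction in edgeR, gave a log2 value of -0.59 ± 0.35 (unadjusted p = 0.115, adjusted p = 0.434) and did not pass. On scaled CPM the groups overlapped in both genotypes.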

How the results depend on the processing

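The LPS calls of the 10 genes were stable: across all settings no call was lost, and 8 to 9 genes were called in WT-LPS against WT and 7 to 8 in CPEB1-KO-LPS against CPEB1-KO. Over 1240 values of single genes, 1178 kept direction and side of the threshold, 27 passed newly and 35 changed sign. The labels do not say whether the replicate numbers pair the libraries. Of 18 same-numbered pairs, 5 correlated over 0.1 (range -0.344 to 0.378), and 3 libraries correlated best with their own number. Pairs with different numbers had a similar range, from -0.382 to 0.377. Low correlations can also occur between paired libraries, so these values could not decide it. With the replicate block, the calls with LPS were 9 and 7 of the 10 genes. The fit without the block called 27.4% and 6.22% of all genes there. In the other comparisons 0 of the 10 were called with the block. Over all genes the fit with the block called 3 in CPEB1-KO against WT and 10 for the average genotype difference.

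Counts over all genes moved by more than 1.5 times as follows. With DESeq2 they were 1655 in CPEB1-KO-LPS against CPEB1-KO, 519 in CPEB1-KO against WT, 90 in CPEB1-KO-LPS against WT-LPS, 301 for the interaction (1 of the 10 genes, Zbtb16) and 108 for the average genotype difference. With only the groups compared, WT-LPS against WT gave 2592. With no filter, the 2 genotype comparisons gave 11 and 3. With limma on log2(TPM + 1) they gave 9 and 4, and the interaction 2; with log2(TPM + 0.1) CPEB1-KO-LPS against WT-LPS gave 9 and the interaction 0. RLE scaling and the stricter filter gave 0 for the interaction, and the stricter filter 10 for the average. Without the 3 libraries apart in markers the counts were 3769 in CPEB1-KO against WT (2 of the 10 genes), 2813 in CPEB1-KO-LPS against WT-LPS (4 of the 10), 1367 for the interaction (1) and 3065 for the average (4). Leaving out 1 library gave 2714 to 4724 in WT-LPS against WT, 355 to 1132 in CPEB1-KO-LPS against CPEB1-KO, 2 to 1292 in CPEB1-KO against WT (0 to 2 of the 10 genes; the highest without WT replicate 1), 1 to 11 in CPEB1-KO-LPS against WT-LPS, 0 to 441 for the interaction (the highest without WT replicate 1) and 5 to 47 for the average. The cause was not tested. On TPM the median of all genes moved to 0.28 in WT-LPS against WT, and 75.7% of calls were higher there against 45.4% with edgeR.

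Signs changed only for differences that did not pass. On log2(TPM + 1) and log2(TPM + 0.1) the interaction was -0.17 and -0.16 for Fkbp5, -0.33 and -0.33 for Per1, -0.25 and -0.25 for Sgk1, -0.10 and -0.10 for Mt1 and -0.36 and -0.36 for Mt2. CPEB1-KO against WT was 0.26 and 0.27 for Tsc22d3 and 0.34 and 0.35 for Nr3c1, and the average of Zbtb16 was 0.06 on log2(TPM + 0.1). Nr3c1 was 0.02 in CPEB1-KO against WT with only the groups compared and 0.02 with the replicate block, and the Sgk1 interaction was -0.02 without the 3 libraries. Leaving out 1 library gave interactions of 0.00 to 0.69 for Fkbp5, -0.38 to 0.58 for Per1, -0.03 to 0.26 for Sgk1, -0.23 to 0.78 for Mt1 and -0.52 to 0.59 for Mt2. In CPEB1-KO against WT it gave -0.27 to 0.12 for Tsc22d3, -0.13 to 0.22 for Nr3c1, -0.84 to 0.10 for Mt1 and -0.95 to 0.10 for Mt2. The average ranged from -0.37 to 0.04 for Zbtb16 and from -0.04 to 0.16 for Ddit4. The LPS difference of the log2 ratio of Mt1 to Mt2 was -0.94 from expected counts and -0.99 to -0.87 without 1 library.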
